A study of Mus musculus with 6 samples.

Results

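The genes described are 10 canonical targets of the coactivator Yap that lie outside the CCN family of matricellular genes, namely Ajuba, Nuak2, F3, Axl, Crim1, Myof, Arhgef17, Dock5, Asap1 and Ankrd1. They were chosen by symbol, as genes whose probe set carried that 1 symbol in the platform annotation, out of 19938 genes with a probe set of their own. Each of the 10 had 1 probe set, under its current symbol. All 10 passed the filter on dim probe sets, as did 13632 genes in all.

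Yap, encoded by Yap1, is a transcriptional coactivator that the Hippo kinases hold back by phosphorylation. It has no DNA-binding domain and acts mainly through TEAD factors, which recognise a short core motif at promoters and, more often, at distant enhancers. Most of the 10 genes belong to a YAP-TEAD target signature defined in human cancer cells. In the embryonic heart Yap is known for promoting the proliferation of cardiomyocytes, and Ankrd1 is often read there as a target.

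The arrays came from Yap KO embryos, in which Cre driven by the troponin T promoter (TNTCre) acted on floxed Yap, and from Yap HET embryos, in which it left Yap heterozygous. There were 3 arrays of each. Hearts were taken at E12.5 from embryos that also carried the R26 mTmG reporter, were dissociated singly, and gave GFP-labelled cells that were sorted as cardiomyocytes. Both groups therefore carried TNTCre and the reporter, and the comparison group was heterozygous for Yap, not wild type. A cell in which the troponin T promoter was ever active can enter the gate. Pooling of hearts on 1 array is not described in the labels. The replicates are described as biological.

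Each value is the intensity of a probe set, on a linear scale. The median over all probe sets was between 128 and 133 on the Yap KO arrays and between 132 and 140 on the Yap HET arrays. Yap1 read 103, 84.7 and 86.6 in Yap KO cells, against 886, 927 and 871 in Yap HET cells, a log2 change of -3.29 ± 0.08 (SE; limma adjusted p = 2.70e-06). The Yap KO readings of Yap1 were near 85.7, the level below which probe sets were left out as dim. Wwtr1, which encodes the Yap paralog TAZ, read 884, 852 and 820 in Yap KO cells and 799.7, 847 and 811 in Yap HET cells. The Wwtr1 groups overlapped (limma adjusted p = 0.529). All 12 cardiomyocyte markers passed the filter and 0 of them changed by limma. Before adjustment, 1 of these markers was lower and 0 were higher at p under 0.05. Over all 13632 genes tested, at least 3838 passed that unadjusted cut, in either direction.

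Among the 10 target genes, 4 fell and 1 rose in Yap KO cells. Ajuba, F3, Dock5 and Arhgef17 fell and Myof rose. In the same limma fit, with Benjamini-Hochberg adjustment over 13632 genes and a threshold of 0.05, 9.93% of all genes tested changed, 4.76% lower and 5.16% higher. The changes were small, since the 5 genes that passed differed by 1.21-fold to 1.52-fold. The other 5 genes did not pass the test, and of these Nuak2, Crim1 and Asap1 had negative and Axl and Ankrd1 positive log2 changes. For every one of the 10 genes the 3 Yap KO values lay wholly on 1 side of the 3 Yap HET values, below them for 7 genes and above them for 3. Over all genes tested the groups did not overlap for 33.9%, with Yap KO wholly below for 17.2% and wholly above for 16.7%. The median log2 change of the 10 genes was -0.19, against -0.02 over all genes tested, and the median absolute change was 0.24, against 0.10. In bulk RNA, fewer cells of a type and less RNA per cell cannot be told apart.

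**Figure D1:**
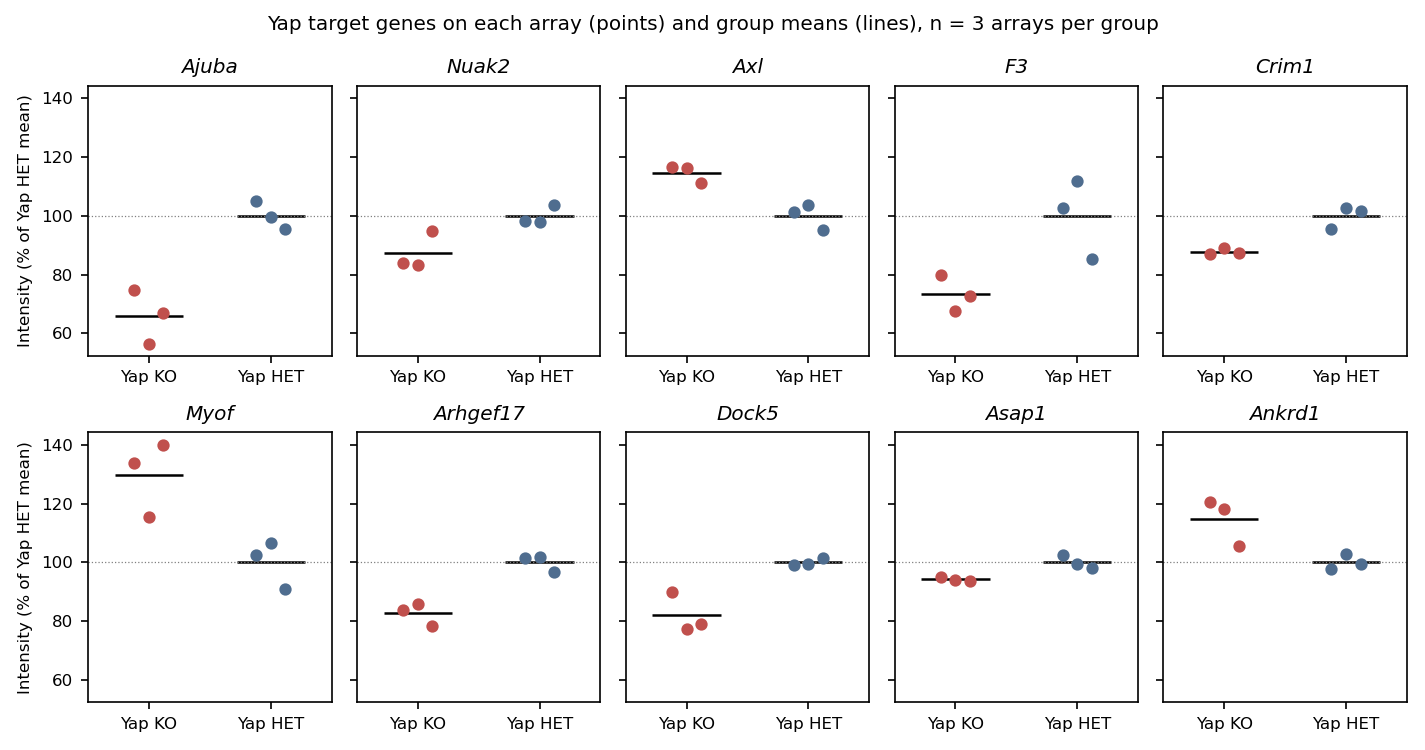
Intensity of each of the 10 genes on every array, as a percentage of the mean of the Yap HET arrays (points: arrays; lines: means of 3 arrays). Yap KO means were 66.0% for Ajuba, 73.3% for F3 and 82.0% for Dock5, and 130% for Myof, and in no panel do the groups overlap.

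The members with a place in the Hippo pathway or beside it were read first. Ajuba encodes a LIM domain scaffold that binds LATS kinases and restrains them. It read 279, 211 and 250.35 in Yap KO cells, against 392, 372 and 357 in Yap HET cells. All Yap KO values were lower, with the lowest on Yap KO replicate 2, and the highest of them was 1.28-fold below the lowest Yap HET value. The means were 247 ± 34.2 and 374 ± 17.8 (SD, n = 3 each), a 1.52-fold lower level in Yap KO cells (log2 change -0.61 ± 0.10 SE, limma adjusted p = 0.0113). The call of Ajuba was lost without Yap HET replicate 1 (limma adjusted p = 0.0521) and kept in the other 15 of 16 alternative fits, where it ranged down to 3.51e-04. Of 5 relatives of Ajuba among the zyxin and Ajuba-type LIM proteins, Wtip, a member of the Ajuba subfamily, fell to 435 ± 20.0 in Yap KO cells, against 522 ± 17.9 in Yap HET cells (log2 change -0.26 ± 0.06, limma adjusted p = 0.0275). The Wtip call was lost without any 1 of the 6 arrays, with limma adjusted p-values up to 0.094 over its alternatives. Limd1, of the same subfamily as Wtip, overlapped between groups (log2 change -0.05, limma adjusted p = 0.511). Lpp and Trip6 had log2 changes of 0.17 and -0.26 (limma adjusted p = 0.0713 and 0.118).

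The promoter of Ajuba is shown because Ajuba is the member with the greatest change, and that of Ankrd1 because it holds the same motif and its gene read on the other side. RefSeq promoter windows (GRCm38.p6), from 250 bases before to 50 bases after the start of the gene, were at hand for 6 of the 10 genes. In the 2 windows that follow, read 5′ to 3′ on the strand of the gene, capitals mark the TEAD core GGAATG or its reverse complement CATTCC. The windows lie at chr14:54577612-54577911 for Ajuba and at chr19:36119795-36120094 for Ankrd1, both on the minus strand.
Ajuba: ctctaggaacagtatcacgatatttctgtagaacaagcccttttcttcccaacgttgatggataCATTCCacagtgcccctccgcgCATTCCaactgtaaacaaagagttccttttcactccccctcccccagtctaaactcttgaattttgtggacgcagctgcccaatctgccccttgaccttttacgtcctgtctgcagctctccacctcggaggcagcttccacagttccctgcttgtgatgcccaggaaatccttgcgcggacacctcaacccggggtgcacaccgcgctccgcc
Ankrd1: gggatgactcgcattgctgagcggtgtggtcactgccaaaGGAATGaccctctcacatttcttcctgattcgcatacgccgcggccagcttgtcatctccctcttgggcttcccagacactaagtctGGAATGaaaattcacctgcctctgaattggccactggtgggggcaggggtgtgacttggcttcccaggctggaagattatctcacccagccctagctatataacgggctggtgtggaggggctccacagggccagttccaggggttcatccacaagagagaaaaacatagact
In the Ajuba window 2 cores begin 186 and 164 bases before the start, both on the reverse strand. In the Ankrd1 window 2 cores begin 210 and 123 bases before the start, both on the forward strand. Axl and Crim1 each have 1 core, at 233 and 79 bases before the start, and the windows of F3 and Myof have 0. Of 32817 promoter windows of this length, 14.7% hold the core on either strand. Searched alike, the CArG box of serum response factor occurred in 0 of the 6 windows and in 1.63% of all windows. A match is a run of letters and was not tested as a binding site, and binding at distant enhancers is not measured by these files.

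Nuak2 encodes a kinase related to AMPK that is activated by LKB1. It read 83.7, 82.9 and 94.5 in Yap KO cells and 97.9, 97.6 and 103 in Yap HET cells. The groups did not overlap, but 2 of the 3 Yap KO values lay below the filter level of 85.7. Its log2 change of -0.20 ± 0.07 did not pass (limma adjusted p = 0.0978, 95% confidence interval -0.35 to -0.05), and near background the difference may be understated. Confidence intervals here and below are per gene and not adjusted over all genes. Of 8 related kinase genes tested, 0 changed. Those with the smallest p were Prkaa2, an AMPK catalytic subunit gene (log2 change -0.19 ± 0.05, limma adjusted p = 0.0622), and Sik2 (log2 change -0.15 ± 0.05, limma adjusted p = 0.0875). For Stk11, the gene of LKB1, the log2 change was 0.03 (limma adjusted p = 0.79).

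Of the members that act at the cell surface or membrane, 1 fell, 1 rose and 2 did not pass. F3 encodes tissue factor, the receptor that starts blood coagulation with factor VII. It read 219, 185 and 199 in Yap KO cells, against 281, 307 and 234 in Yap HET cells. The groups did not overlap, although Yap HET replicate 3 was only 1.07-fold above the highest Yap KO value. The means were 201 ± 17.1 and 274 ± 36.9 (SD, n = 3 each), a 1.36-fold lower level in Yap KO cells (log2 change -0.44 ± 0.11, limma adjusted p = 0.0398). The call was kept when Yap KO replicate 1 or Yap HET replicate 3 was left out (limma adjusted p = 0.0468 and 0.0208). It was lost when Yap KO replicate 2 or 3 was left out (limma adjusted p = 0.142 and 0.107), and also for Yap HET replicate 1 or 2 (limma adjusted p = 0.128 and 0.0652). Tfpi, the inhibitor of the tissue factor pathway, and F2r, a thrombin receptor gene, did not pass, with log2 changes of -0.17 ± 0.05 and 0.13 ± 0.05 (limma adjusted p = 0.0707 and 0.157).

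The F3 promoter is shown because it differs from the windows above in what it holds. The window, at chr3:121723287-121723586 on the plus strand, has 0 TEAD cores and 2 copies of the AP-1 motif TGANTCA, in capitals, which begin 146 and 135 bases before the start.
F3: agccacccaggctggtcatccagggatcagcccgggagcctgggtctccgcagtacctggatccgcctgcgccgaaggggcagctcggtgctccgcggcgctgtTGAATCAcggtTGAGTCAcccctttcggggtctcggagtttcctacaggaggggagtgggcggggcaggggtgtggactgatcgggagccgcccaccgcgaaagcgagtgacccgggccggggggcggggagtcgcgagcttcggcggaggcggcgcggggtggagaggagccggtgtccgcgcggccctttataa
Of all windows, 7.81% hold the AP-1 motif on either strand, and F3 was the 1 gene among the 6 with a window that did.

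Axl encodes a receptor tyrosine kinase of the TAM family, bound by Gas6. It read 1267, 1261 and 1206 in Yap KO cells and 1098, 1124 and 1034 in Yap HET cells. All Yap KO values were above all Yap HET values, the reverse of the order in F3. The log2 change of 0.20 ± 0.05 missed the threshold (limma adjusted p = 0.0593, 95% confidence interval 0.07 to 0.32). It passed in 7 of 16 alternative fits, among them all 3 rescalings of the arrays, and in 0 of the 6 fits with 1 array left out. The other TAM receptor genes, Mertk and Tyro3, had log2 changes of -0.20 ± 0.06 and -0.07 ± 0.05 (limma adjusted p = 0.0825 and 0.329). The ligand gene Gas6 overlapped between groups (log2 change 0.06 ± 0.06, limma adjusted p = 0.613). Pros1, another TAM ligand gene, was too dim for the filter, with 94.0, 102 and 106 in Yap KO cells and 77.1, 72.0 and 66.1 in Yap HET cells. Without the filter its log2 change was 0.49 ± 0.08 (limma adjusted p = 0.0318).

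Crim1 encodes a membrane protein with cysteine-rich repeats that binds bone morphogenetic proteins (BMPs). It read 233, 238 and 233 in Yap KO cells, against 255, 275 and 272 in Yap HET cells. The groups were separate and the Yap KO arrays lay close together, yet the log2 change of -0.19 ± 0.05 missed the threshold (limma adjusted p = 0.0594, 95% confidence interval -0.31 to -0.07). Among 4 other genes for BMP-binding proteins, Bmper rose to 272 ± 14.6 in Yap KO cells, against 202 ± 25.6 in Yap HET cells (log2 change 0.44 ± 0.10, limma adjusted p = 0.0297). The Bmper call was lost in 4 of the 6 fits with 1 array left out, and over all its alternatives the limma adjusted p reached 0.114. Of 5 BMP ligand genes, Bmp2 rose, with 1151 ± 115 in Yap KO and 827 ± 16.04 in Yap HET cells (log2 change 0.47 ± 0.07, limma adjusted p = 0.0101), and it passed in all 16 alternatives.

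Myof encodes myoferlin, a ferlin that takes part in membrane fusion and repair in muscle precursors, and was the 1 member that rose. It read 189.5, 163 and 198 in Yap KO cells, against 145, 151 and 129 in Yap HET cells. The groups did not overlap, and the nearest values, from Yap KO replicate 2 and Yap HET replicate 2, were 1.08-fold apart. The means were 184 ± 18.0 and 141 ± 11.5 (SD, n = 3 each), a 1.30-fold higher level in Yap KO cells (log2 change 0.38 ± 0.09, limma adjusted p = 0.039). The call was kept when replicate 2 of Yap KO or of Yap HET was left out (limma adjusted p = 0.0383 and 0.0387). It was lost when Yap KO replicate 1 or 3 was left out (limma adjusted p = 0.0899 and 0.115), and also for Yap HET replicate 1 or 3 (limma adjusted p = 0.103 and 0.096). Of its 5 ferlin relatives, Dysf, the gene of dysferlin, was the 1 bright enough to test and did not pass (log2 change 0.11 ± 0.09, limma adjusted p = 0.441). Otof, Fer1l4, Fer1l5 and Fer1l6 were below the filter.

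Among the 3 members that regulate small GTPases, Arhgef17 and Dock5 fell and Asap1 did not pass. Arhgef17 encodes a guanine nucleotide exchange factor. It read 506, 517 and 471 in Yap KO cells, against 612, 614 and 583 in Yap HET cells. The lowest Yap HET value was 1.13-fold above the highest Yap KO value. The means were 498 ± 23.8 and 603 ± 17.2 (SD, n = 3 each), a 1.21-fold lower level in Yap KO cells (log2 change -0.28 ± 0.06, limma adjusted p = 0.0236). The call was lost when Yap KO replicate 2 or 3 was left out (limma adjusted p = 0.0609 and 0.0741), as it was for Yap HET replicate 1 (limma adjusted p = 0.0947). Of 4 other Arhgef genes tested, 0 changed, and Arhgef10 had the smallest p (log2 change -0.18 ± 0.07, limma adjusted p = 0.13).

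Dock5 encodes an exchange factor for the GTPase Rac. It read 156, 134 and 137 in Yap KO cells, against 171, 172 and 176 in Yap HET cells. The Yap HET values lay close together, and Yap KO replicate 1 was nearest to them. The means were 142 ± 11.7 and 173 ± 2.35 (SD, n = 3 each), a 1.22-fold lower level in Yap KO cells (log2 change -0.29 ± 0.07, limma adjusted p = 0.0349). The call was kept when Yap KO replicate 1 was left out (limma adjusted p = 0.0171). It was lost for Yap KO replicates 2 and 3 (limma adjusted p = 0.131 and 0.107) and for Yap HET replicates 1, 2 and 3 (limma adjusted p = 0.107, 0.0545 and 0.0862). Of 7 other Dock genes tested, Dock10 fell, with 98.2, 101 and 115 in Yap KO cells against 166, 193 and 174 in Yap HET cells (log2 change -0.76 ± 0.08, limma adjusted p = 0.00274). Dock10 passed in all 15 alternatives that tested it. Dock9 and Dock8 did not pass (limma adjusted p = 0.306 and 0.613).

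Asap1 encodes a protein that switches off Arf GTPases. It read 814, 807 and 803 in Yap KO cells and 881, 852 and 841 in Yap HET cells. The groups did not overlap, but the difference was only 1.06-fold, and the log2 change of -0.09 ± 0.05 did not pass (limma adjusted p = 0.273, 95% confidence interval -0.20 to 0.02). It was the member with the smallest change. Asap3 and Acap2, of the same family, had log2 changes of -0.19 and 0.15 (limma adjusted p = 0.108 and 0.109). The GTPase genes Rac1, Arf1 and Arf6 had log2 changes between -0.08 and 0.04, with limma adjusted p-values from 0.365 for Arf1 to 0.986 for Rac1.

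**Figure D2:**
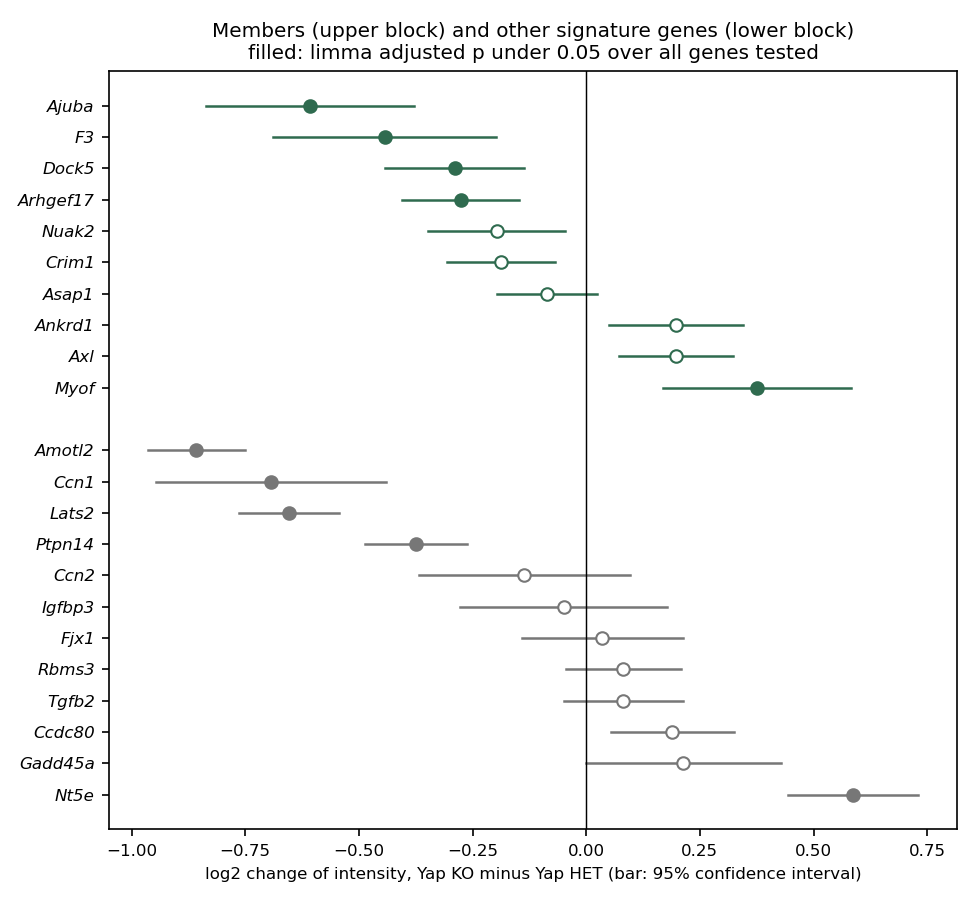
Log2 change of intensity, Yap KO minus Yap HET, with its 95% confidence interval, for the 10 genes (upper block) and for the 12 other genes of the target signature that were tested (lower block); filled points passed limma over all genes tested. In the upper block the filled points are Ajuba (-0.61), F3 (-0.44), Dock5 (-0.29), Arhgef17 (-0.28) and Myof (0.38). The intervals are per gene and not adjusted over all genes, so an open point can have an interval that leaves out 0.

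Ankrd1 encodes a cardiac ankyrin repeat protein that binds titin in the sarcomere and also acts in the nucleus, and it is induced in stretched or stressed heart muscle. It read 8114, 7939.7 and 7104 in Yap KO cells, against 6578, 6915 and 6681 in Yap HET cells. No Yap KO array was lower than a Yap HET array, although Yap KO replicate 3 and Yap HET replicate 2 were only 1.03-fold apart. Its log2 change was 0.20 ± 0.06 and did not pass (limma adjusted p = 0.0914). The 95% confidence interval, 0.05 to 0.34, held no negative value, but unlike the test it was not adjusted over all genes. Ankrd1 passed in 3 of 16 alternative fits, higher in Yap KO cells each time, with limma adjusted p-values from 0.00984 to 0.251 over all 16. Its relatives Ankrd23 and Ankrd2 had log2 changes of -0.37 ± 0.12 and -0.20 ± 0.10 (limma adjusted p = 0.0942 and 0.249), opposite in sign to Ankrd1. For Ttn, the gene of titin, the log2 change was -0.04 (limma adjusted p = 0.821).

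Of 11 cardiac stress and fetal genes tested beside Ankrd1, 2 rose and 0 fell by limma, against 5.16% and 4.76% of all genes tested. Before adjustment, 4 were lower and 2 were higher at p under 0.05, a cut that at least 3838 of the 13632 genes tested passed. Nppb, a natriuretic peptide gene, rose to 5616 ± 511 in Yap KO cells against 4278 ± 190.5 in Yap HET cells (log2 change 0.39 ± 0.08, limma adjusted p = 0.0208). Nppa, the other natriuretic peptide gene of this list, averaged 9200.3 ± 312 in Yap KO and 8048 ± 51.0 in Yap HET cells (log2 change 0.19 ± 0.05, limma adjusted p = 0.0487). The Nppa call was lost without any 1 of the 6 arrays and that of Nppb in 4 of these 6 fits, and over all alternatives the limma adjusted p reached 0.175 for Nppa and 0.0908 for Nppb. For Fhl1, a LIM protein gene, the log2 change was -0.18 ± 0.05 (limma adjusted p = 0.0605).

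The rest of the target signature holds 13 genes, of which 12 were tested and Foxf2 was too dim. Of these 12, 4 fell and 1 rose, where the share changed over all genes was 9.93%. Amotl2 (log2 change -0.86 ± 0.05), Ccn1 (-0.69 ± 0.11), Lats2 (-0.65 ± 0.05) and Ptpn14 (-0.37 ± 0.05) fell and Nt5e, the gene of an ecto-nucleotidase, rose (0.59 ± 0.06). Amotl2, Lats2 and Ptpn14 encode inhibitors of Yap. The 5 calls were kept under each of the alternatives that tested these genes, whereas no member was called under all of its own. Ccn2, often read as the model Yap target, overlapped between groups, with 3604, 3428 and 2726 in Yap KO cells and 3564, 3464 and 3619 in Yap HET cells (log2 change -0.14 ± 0.10, limma adjusted p = 0.412). The median log2 change of the 12 genes was -0.01 and their median absolute change 0.20.

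Some markers of other cell types, but not of all, moved in the same comparison, in which 5.16% of all genes tested rose and 4.76% fell. Beside F3, Ajuba and Myof their values are given. The 9 epicardial markers summed to 3692, 2851 and 4107 in Yap KO cells and to 3930, 4776.5 and 3988 in Yap HET cells. On this list 7 of 9 markers had negative log2 changes, with a median of -0.30 over the list, and the Yap KO values lay wholly below the Yap HET values for 4. Over all genes tested, 55.0% had negative log2 changes and 17.2% lay wholly below. Before adjustment, 4 were lower and 1 was higher at p under 0.05. At least 3838 of the 13632 genes tested passed that unadjusted cut, in either direction. After adjustment 0 fell and 1 rose, Tcf21 (log2 change 0.93 ± 0.17, limma adjusted p = 0.0154), whose call was lost when either Yap KO replicate 3 or Yap HET replicate 1 was left out (limma adjusted p up to 0.0612). Upk3b, a marker of mesothelium, read 811, 577 and 1040 in Yap KO cells against 1192, 1402 and 1209 in Yap HET cells (limma adjusted p = 0.0606). The epicardial sum was lowest on Yap KO replicate 2 and highest on Yap HET replicate 2, as was F3. Yap KO replicate 2 also had the lowest Ajuba, Dock5 and Nuak2 of all arrays and the lowest Myof among the Yap KO arrays. The rest of the order differed. On Yap KO replicate 3 the sum was above those of Yap HET replicates 1 and 3, whereas Ajuba and F3 were below every Yap HET value. Ajuba was highest on Yap HET replicate 1. All 9 epicardial markers passed the filter, and none of them lay below its level on all arrays.

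The 9 mesenchymal markers summed to between 6231 and 8233 in Yap KO cells and between 5267.5 and 5504 in Yap HET cells, and 3 rose and 0 fell. These were Pdgfra (log2 change 0.98 ± 0.10), Postn (0.72 ± 0.13) and Sox9 (0.39 ± 0.07), and the calls of Postn and Sox9 were lost when Yap KO replicate 2 was left out (limma adjusted p = 0.0609 and 0.0661). The endothelial and endocardial markers summed to between 1545.5 and 1609 in Yap KO cells and between 1237 and 1339 in Yap HET cells. Of 7 tested, 6 had positive and 1 a negative log2 change. By limma 2 rose, Kdr (0.76 ± 0.05) and Nfatc1 (0.31 ± 0.08), where 5.16% of all genes tested rose. The Kdr call was kept in all 6 fits with 1 array left out and that of Nfatc1 in 1 of 6. Of 7 mural markers 2 rose, Pdgfrb (0.73 ± 0.08) and Cspg4 (0.34 ± 0.07), with the call of Pdgfrb kept in all 6 such fits and that of Cspg4 in 2. Another 3 mural markers had negative log2 changes, -0.46 for Tagln, -0.15 for Acta2 and -0.09 for Myh11, and did not pass (limma adjusted p = 0.119, 0.192 and 0.704). The mural sums overlapped, with 14140 to 15617 in Yap KO cells and 14921 to 15566 in Yap HET cells. In the myeloid list 1 of 5 rose, Lyz2 (0.47 ± 0.11), whose call was kept in 1 of the 6 fits with 1 array left out. The other 4 had negative log2 changes and did not pass, among them Cd68 (-0.72), Csf1r (-0.21) and Ptprc (-0.17), with limma adjusted p = 0.0632, 0.105 and 0.0738. For these 3 the Yap KO values lay wholly below the Yap HET values, as for 17.2% of all genes tested. Each of the 3 was lower at an unadjusted p under 0.05, as at least 3838 of the 13632 genes tested were lower or higher. The myeloid sums overlapped, with 1785 to 1986 in Yap KO cells and 1697 to 1995.5 in Yap HET cells. Of the erythroid list 1 marker was tested, of the Schwann and neuronal list 2, and 0 changed by limma. The erythroid sums overlapped, with 149 to 166 in Yap KO cells and 144 to 170 in Yap HET cells. So did the Schwann and neuronal sums, with 550 to 610 and 540.5 to 641. No marker was at 0, and Adgre1, Alas2 and Stmn2 were below the filter level on all arrays. The cardiomyocyte markers summed to between 74854 and 77068 in Yap KO cells and between 75930.1 and 77142 in Yap HET cells. The part of any of these cell types in the changes of the 10 genes was not tested.

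**Figure D3:**
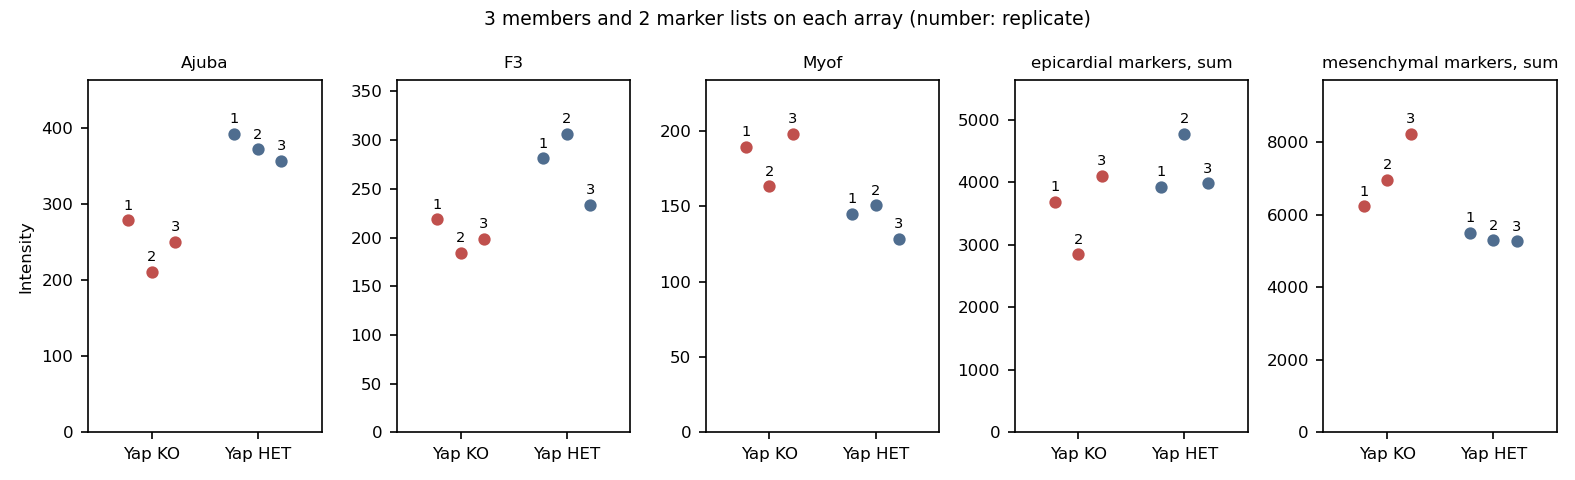
Intensity of Ajuba, F3 and Myof and the summed intensity of 9 epicardial and 9 mesenchymal markers on each array, with the replicate number above each point. The epicardial sum is lowest on Yap KO replicate 2 (2851), which also has the lowest Ajuba (211), F3 (185) and, among the Yap KO arrays, Myof (163). On Yap KO replicate 3 the sum (4107) is above those of Yap HET replicates 1 and 3, whereas Ajuba and F3 are below every Yap HET value.

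Profiles were compared by the root mean square difference of log2 intensity over the 6 arrays, each profile centred on its mean. For each gene that passed, the 3 tested genes with the smallest difference were found, with predicted and clone-named genes left out. For Ajuba these were Zfp57 (0.07), Cdca7l (0.07) and Cenpm (0.08), and for F3 they were Col8a1, Tcea3 and Arhgef3 (0.06 each). For Arhgef17 they were Cers6, Cad and Ccnf, and for Dock5 Rcc1, Nufip2 and Creb5, with differences between 0.02 and 0.03. For Myof they were Rfesd, Id3 and Pdcd10, with differences of 0.04 to 0.05. The profiles were not scaled, so a gene with a small change has nearer neighbours, and the differences are not compared between members. Pdcd10, Nufip2 and Creb5 did not themselves pass (limma adjusted p = 0.06, 0.0632 and 0.0688). Only 3 genes were kept for each member, and none appeared beside more than 1 member. Whether the members share a profile was not tested.

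**Figure D4:**
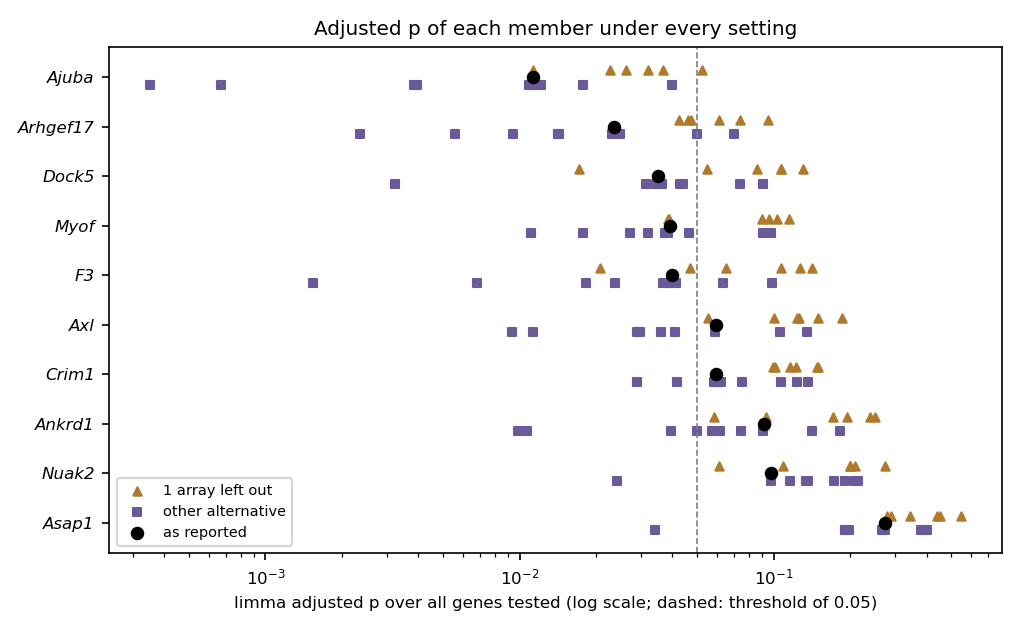
Limma adjusted p of each of the 10 genes over all genes tested, as reported (circles), with 1 array left out (triangles) and under the other alternatives (squares), on a log axis with the threshold dashed. Ajuba lies left of the threshold in 15 of 16 alternatives, and Crim1, Nuak2 and Asap1 in 2, 1 and 1.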

How the data were processed

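RNA of 3 Yap KO and 3 Yap HET samples, grouped by title, was hybridised to Affymetrix arrays. The deposited table gives a linear intensity per probe set, and the tool named in the submitters' processing notes is RMA, with no version. RMA gives log2 values, so how the authors returned to a linear scale is not stated. Genome build and detection calls were not used.

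Of 35556 probe sets, only the 21789 with 1 gene symbol were used (several: 1621; none: 12146). Symbols were updated through Entrez identifiers to RefSeq of GRCm38.p6, which matched 21698. Each gene took its brightest probe set, and genes under the 40th percentile of probe set means (85.7) were left out. Log2 intensities were compared with limma 3.58.1 (lmFit, eBayes) under R 4.3.3, group only, with Benjamini-Hochberg adjustment over 13632 genes. The array number limits the precision. On simulated data of this comparison, with 13632 genes, 18%, 94%, 100% and 100% of genes changed by 0.25, 0.5, 1 and 2 on the log2 scale were recovered, with 8 false calls among 164. The data gave 1353 calls, so the adjusted threshold was stricter in the simulation, and its recovery of small changes does not carry over directly.

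The genes and lists were chosen with earlier results of these data known. All 10 members were named, and in each other list those past the threshold and up to 3 with the smallest p; predicted genes were not named. Pros1, Foxf2, Wwtr1, Stk11, Limd1, Tagln, Acta2, Myh11, Csf1r, the GTPase genes and others given for their role fall outside that rule or were chosen after their values were seen. Alternatives were no or a stricter filter, the mean of probe sets, quantile, median and cyclic loess scaling, a pseudocount of 50, a trended robust prior, array weights, a replicate block and each array left out.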

Additional observations from a re-analysis of the deposited data

How the results depend on the processing

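The direction of all 10 genes was the same in each alternative that tested them; of these values 118 stayed on their side of the threshold, 25 lost a call and 14 gained one. With 1 array left out, between 433 and 1375 genes were called (1353 with all arrays), between 0 and 4 members lower and between 0 and 1 higher. For the other signature genes, 4 lower and 1 higher were called in each of these fits. Without Yap HET replicate 1, 0 members were called, with 434 genes called over all genes. The count over all genes was 508 with no filter, 698 with the replicate block, 2246 with a trended and robust prior and 4617 with array weights. Members called lower were 1 with no filter or with the replicate block, Ajuba each time, and 7 with array weights. Members called higher were 0 with no filter or the replicate block, 2 with median centring, cyclic loess or the pseudocount of 50, and 3 with quantile normalization, a trended and robust prior or array weights. With the trended and robust prior 2 other signature genes were called higher. Under the stricter filter 4 members were called lower and 1 higher, but not the same members. Crim1 was among those lower and Axl was the 1 higher (limma adjusted p = 0.0291 for each). Dock5, Myof and Nuak2 were not tested under the stricter filter, where fewer genes are tested. Otherwise the cause was not tested. Same-numbered arrays of the groups had correlations of their deviations of -0.08, -0.17 and 0.12, so the numbers are not taken as pairs. Signal near background limits Nuak2.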
